A study of Danio rerio with 48 samples.

Results

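The genes described here were grouped under melatonin synthesis and light sensing in the pineal organ. They were chosen by name as a set of 6 zebrafish genes: aanat1, aanat2, asmt, exorh, otx5 and crx. In the name table used, 4 of the 6 names led to 5 of the 32520 gene IDs. aanat1 was listed without its last digit, as AANAT (ENSDARG00000036567), aanat2 was ENSDARG00000079802, and asmt was ASMT (ENSDARG00000098249). crx led to 2 IDs, crx ENSDARG00000011989 and CRX ENSDARG00000043483, which are given separately. exorh and otx5 led to no ID and were not analysed under those names. The name table does not settle whether CRX ENSDARG00000043483 is a second crx gene or otx5 under another name.

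RNA was sequenced from the whole brain of adult fish of the AB zebrafish line, in 48 libraries. The study asked whether permethrin, a pyrethroid insecticide, met early in life by the F0 founders at 10 µg/L, left a mark in their brains and in those of F1 and F2 descendants that were never exposed. Each of the 3 generations held 4 groups of 4 libraries. These were females and males coded PH, read here as the permethrin lineage, and females and males coded SCA, read as its control. The labels do not spell these codes out, and the hour at which brains were taken is not given in the sources used here. A library is called by its group and label number, such as F0 M SCA 6 for an F0 control male.

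Melatonin is made from serotonin in steps. The acetyltransferase Aanat acetylates serotonin, and Asmt then methylates the product to melatonin. Zebrafish have 2 aanat genes: aanat2 is known as the enzyme of the pineal organ, where its transcript peaks at night, and aanat1 as mainly retinal. The pineal photoreceptors of fish sense light directly, with a photopigment and a phototransduction cascade much like those of retinal rods and cones. Crx, a homeobox transcription factor of the Otx family, drives photoreceptor genes in both the retina and the pineal organ.

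Counts in genes ran from 4802827 to 10032850 per library, with a median of 7713141. Levels are given as CPM (reads scaled to a common library size), with TMM factors over all 48 libraries. No transcript lengths were used, so levels are compared between fish and not between genes. The genes were sparsely read: the highest count of any of the 5 IDs in a library was 344, and a count of 0 allows a level of up to 0.335 to 0.40 CPM, the value of 3 counts of the unadjusted library total, in the libraries where an ID was at 0. Such limits and intervals cover counting error only. In whole-brain RNA, fewer pineal cells and less RNA per cell cannot be told apart.

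The acetyltransferase gene aanat2 was read in all 48 libraries, with 6 to 122 counts. Its level was lowest at 0.628 CPM, had a median of 2.05 CPM and was highest at 14.8 CPM, in F0 M SCA 6. By group, it averaged least in F1 PH females, at 1.40 ± 0.627 CPM, and most in F0 SCA males, at 4.64 ± 6.78 CPM (SD, n = 4 each). The F0 SCA males show what that mean rests on, with 0.879, 0.990, 1.90 and 14.8 CPM. One fish stood far above the other 3.

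AANAT, the aanat1 gene, was the steadiest of the 5 IDs. It ran from 1.238 to 6.801 CPM with a median of 2.87 CPM, on 10 to 45 counts, and its coefficient of variation over all fish was 36.4%. The corresponding figure for aanat2 was 86.0%. Group means of AANAT lay between 2.16 ± 0.744 CPM in F0 SCA males and 4.25 ± 1.90 CPM in F2 PH males (SD, n = 4 each).

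ASMT, which encodes the last enzyme of the pathway, had a far wider range, from 0.151 CPM on 1 count to 41.7 CPM on 344 counts. Its median was 1.54 CPM and its coefficient of variation 142%. The highest library was again F0 M SCA 6, where the exact 95% interval of its count spans 38.2 to 47.4 CPM of the unadjusted library total. Group means ran from 0.916 ± 0.365 CPM in F2 PH males to 15 ± 14.4 CPM in F1 SCA females (SD, n = 4 each). The SD was as large as the mean or nearly so in most groups, which held fish at very different levels. A second gene of that name, asmt2 (ENSDARG00000070874), is no member and was looked at after the values were seen. It had no such spread, with 3.31 to 18.1 CPM and a coefficient of variation of 32.0%.

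crx ENSDARG00000011989 ran from 0 to 15.9 CPM with a median of 0.443 CPM, and 5 of 48 libraries had no count. CRX ENSDARG00000043483 ran from 0 to 9.09 CPM with a median of 0.376 CPM, and 10 of 48 libraries had no count. Both were highest in F0 M SCA 6, with 131 and 75 counts. Both averaged least in F1 PH males, crx at 0.166 ± 0.178 CPM and CRX at 0.149 ± 0.112 CPM (SD, n = 4 each), which lie below the level that 0 counts allow. For all 5 IDs, neighbouring groups in the order of their means overlapped in 11 of 11 pairs. Neighbours in that order have the closest means, so this does not tell whether groups farther apart overlapped.

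**Figure D1:**
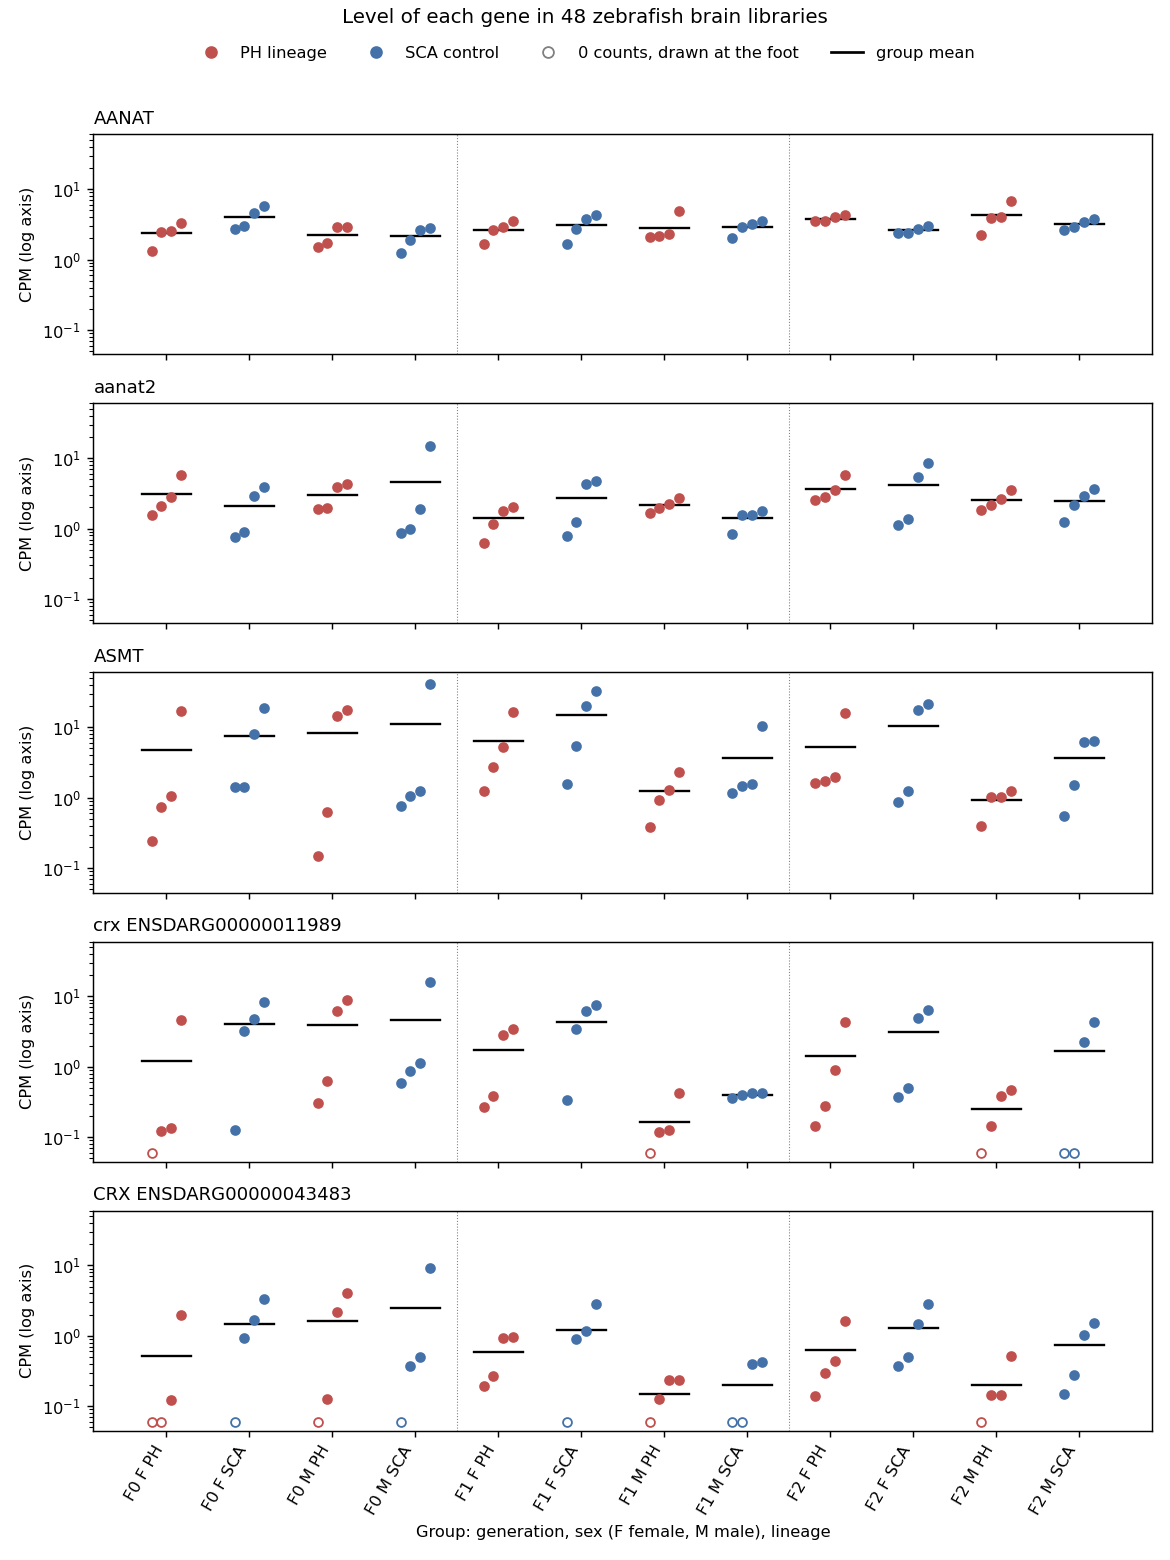
Level of each ID in every library, in CPM on a log axis, with PH fish in red left of SCA fish in blue and a black bar at the mean of each group of 4. Open points at the foot had 0 counts. AANAT stays between 1.238 and 6.801 CPM, while ASMT and crx fall into a high and a low set of fish within most groups.

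The levels of ASMT fell into 2 sets with a gap between them. 17 libraries had 5.32 to 41.7 CPM and 31 had 0.151 to 2.73 CPM, with a gap of 0.90 on the log2 scale and no library in it. crx ENSDARG00000011989 was split in the same way, with 17 libraries at 2.28 to 15.9 CPM, 31 at 0 to 1.13 CPM and a gap of 0.87 on the log2 scale. The high sets shared 16 of their 17 libraries. F1 M SCA 14 was high for ASMT alone, with 75 counts of ASMT and 3 of crx. F0 F SCA 18 was high for crx alone, with 37 counts of crx and 11 of ASMT. By the rule used, the levels of aanat2, AANAT and CRX showed no such gap. The largest gap of CRX by that rule was 0.57 on the log2 scale, between 0 and 0.123 CPM. In CPM, however, no library lay between 0.521 CPM (F2 M PH 9) and 0.892 CPM (F1 F SCA 4) of CRX. The 17 libraries above that space were the same 17 that were high for crx.

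Fish of the high set occurred in both lineages, both sexes and all generations. For ASMT they were 6 of 24 PH fish and 11 of 24 SCA fish, 11 of 24 females and 6 of 24 males, and 6 of 16 F0 fish, 6 of 16 F1 fish and 5 of 16 F2 fish. By group there were 1 of 4 in F0 PH females and 2 of 4 in F0 SCA females, and 2 of 4 in F0 PH males and 1 of 4 in F0 SCA males. In F1 there were 2 of 4 PH females and 3 of 4 SCA females, and no PH male and 1 of 4 SCA males. In F2 there were 1 of 4 PH females and 2 of 4 SCA females, and no PH male and 2 of 4 SCA males. These counts describe a split read off the levels themselves and were given no test.

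1 of the 2 fish that broke the match was also unlike the rest in markers of the eye. F0 F SCA 18 held most of the lens RNA of the series. The lens list of crystallin and other lens genes (46 IDs, all detected) summed to 8.22e+04 CPM in it, to 266 CPM in the next library and to a median of 23.9 CPM. In that fish ASMT was at 1.40 CPM and aanat2 at 0.766 CPM, both low, while crx was at 4.72 CPM and CRX at 3.32 CPM.

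**Figure D2:**
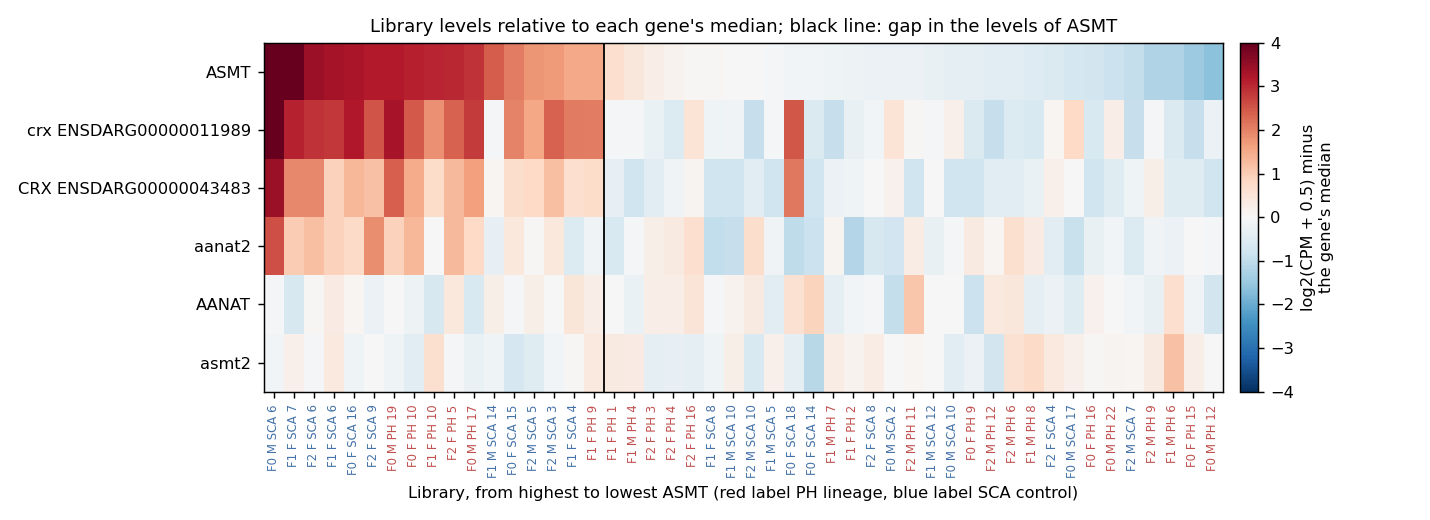
Level of 6 IDs in 48 libraries, as log2(CPM + 0.5) minus the median of the gene, ordered from highest to lowest ASMT, with colours saturating at 4 in either direction. Left of the black line stand the 17 libraries above the gap of ASMT: crx, CRX and aanat2 are mostly red there, AANAT and asmt2 are not, and F0 F SCA 18 is red for crx and CRX right of the line.

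Whether the members varied together among fish was asked with Pearson's r and Spearman's ρ of log2 CPM, with group means removed and p-values from 100000 permutations within generation, two-sided and Benjamini-Hochberg adjusted over 17 relations. Pairs with a stepped gene were taken within the high and the low set of fish, centred on generation means, since a pooled r would restate the gap. Within the 17 fish high in ASMT, aanat2 tracked it closely, with r = 0.87 and ρ = 0.86 (adjusted permutation p = 0.000765 and 0.00127). Without the 2 libraries farthest from the median of ASMT, r was 0.81. It was 0.91 in the 6 F0 fish and 0.86 in the 6 F1 fish, and F2 held 5, too few for a value. Within the 31 fish low in ASMT, r was -0.09 (adjusted permutation p = 0.770). ASMT had 1 to 22 counts in those fish, so counting error could lower r, and the 2 sets cannot be compared directly.

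CRX correlated with ASMT among the 17 high fish, at r = 0.71 and ρ = 0.67 (adjusted permutation p = 0.00582 and 0.0165), and r was 0.50 without the 2 farthest libraries. Among the 31 low fish it was 0.07, against 0.91 in F0 and 0.63 in F1 within the high set. crx and CRX had r = 0.83 and ρ = 0.74 among the 17 fish high in crx (adjusted permutation p = 0.00153 and 0.0138), with 0.67 without the 2 farthest and 0.83 in the 7 F0 fish. crx and aanat2 had r = 0.73 and ρ = 0.68 there (adjusted permutation p = 0.0139 and 0.0183), with 0.64 without the 2 farthest and 0.67 in F0. Neither of these 2 relations passed among the 31 low fish, where r was 0.31 and -0.27 and counts of crx and CRX were few. For ASMT and crx in the fish high in ASMT the rank correlation passed, at ρ = 0.66 (adjusted permutation p = 0.0242), while r = 0.57 did not (adjusted permutation p = 0.0886). It was 0.37 without the 2 farthest libraries, with 0.93 in F0 and 0.39 in F1.

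aanat2 and CRX, neither of which was stepped by the rule used, correlated over all 48 fish at r = 0.67 and ρ = 0.62 (adjusted permutation p = 0.00034 and 0.00068). Within generations r was 0.70 (F0), 0.77 (F1) and 0.55 (F2), and it was 0.61 without the 2 farthest libraries. CRX levels in CPM parted the same fish as crx, so these pooled values may restate that split. For this pair no value within the high and low sets was computed. AANAT went with none of the others: its r was -0.05 with aanat2 and -0.05 with CRX over 48 fish (adjusted permutation p = 0.770 for both), and its relations with ASMT and crx in either set had adjusted p-values of 0.301 to 0.770.

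**Figure D3:**
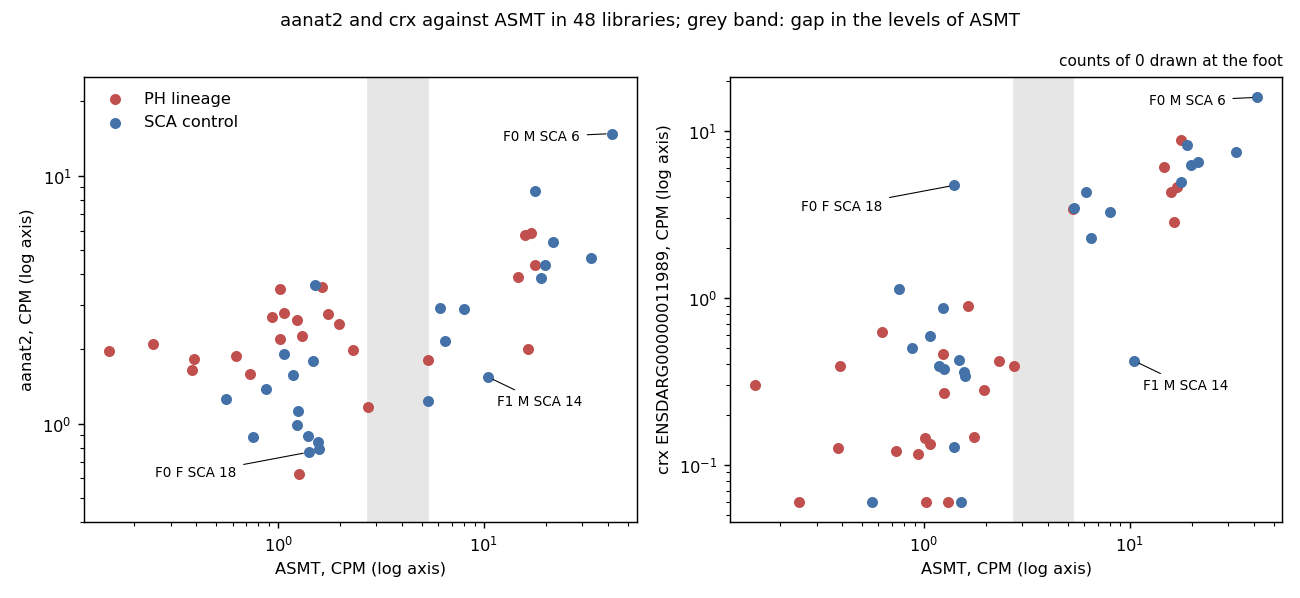
aanat2 (left) and crx ENSDARG00000011989 (right) against ASMT in 48 libraries, in CPM on log axes, PH fish in red and SCA fish in blue, with the gap of ASMT from 2.73 to 5.32 CPM in grey. aanat2 climbs with ASMT right of the band (r = 0.87, n = 17) and not left of it (r = -0.09, n = 31), where ASMT had few counts. In the right panel F0 F SCA 18 and F1 M SCA 14 are the 2 fish that are high for one gene alone.

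Among 19659 other genes with a mean of at least 0.5 CPM, those most like each member were ranked by r of group-centred log2 CPM over the 48 libraries, given as a description. The points share library and sequencing depth, and for stepped genes r mostly reflects the high set. Genes without a symbol, or with a provisional one such as those starting with si: or zgc:, were ranked but passed over in naming. For ASMT such a gene, si:ch211-133l5.5, had the highest r of all (0.937). Next came rdh5, a retinol dehydrogenase gene (r = 0.92), and PDE6H, a subunit of the photoreceptor phosphodiesterase (0.92). The recoverin gene rcvrnb (0.91) and the arrestin gene saga (0.91) followed. aanat2 was most like rdh5 (0.86), ASMT itself (0.84), unc119c (0.82) and guca1aa, which encodes an activator of guanylate cyclase (0.81). For crx the most alike were saga (0.95), the G protein subunit gene GNG11 (0.94), rbp4l (0.94) and RCVRN ENSDARG00000009637, another recoverin gene (0.94). CRX was most like PDE6H (0.90), rbp3, which encodes the retinoid carrier between photoreceptors and pigment epithelium (0.90), rcvrna (0.89) and saga (0.89).

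AANAT again stood apart, with no gene above r = 0.58. With provisional symbols passed over as above, its most alike genes were RTN4R, a neuronal receptor gene (r = 0.58), and the chromatin gene dek (0.56). KLF5 ENSDARG00000015506, a transcription factor gene (0.55), and QDPR ENSDARG00000037378, whose enzyme recycles the cofactor of tryptophan hydroxylase (0.55), followed.

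The other genes of the pathway and of the neighbouring tissues were taken from 10 lists. Of 54 measured phototransduction IDs shared by pineal organ and retina, 20 (37.0%) had an r of at least 0.7 with ASMT, 27 (50.0%) with crx and 11 (20.4%) with aanat2. The shares over all other genes were 0.30%, 0.387% and 0.173%. The list median of r with ASMT was 0.58, against -0.01 over all genes. Of 12 measured IDs upstream of melatonin, 1 reached 0.7 with ASMT, TPH2 at 0.71, which encodes a tryptophan hydroxylase of the first step to serotonin. The 2 TPH1 IDs had 0.27 and -0.07, and DDC, the decarboxylase of the second step, had 0.34. Of 12 transcription factor IDs the 1 past 0.7 was LHX4, at 0.89. The others ran from -0.19 (rx3) to 0.39 (NR2E3), with OTX2 at 0.03 and bsx, a homeobox gene of pineal development, at 0.06. None of 4 melatonin receptor IDs, 20 non-visual opsin IDs, 50 circadian clock IDs, 17 IDs of the adjoining habenula or 42 lens IDs reached 0.7 with ASMT. Most lens RNA of the series was in F0 F SCA 18, a fish low in ASMT. The r of the lens IDs therefore rests largely on that fish and says little about the others. parapinopsinb and parietopsin, opsins of the pineal complex, had 0.17 and 0.08, and the non-visual opsin list ran from -0.26 to 0.345 (tmtops3a).

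The list of retinal pigment epithelium and pigment cells (15 IDs, all detected) summed to 16.5 to 73.8 CPM, at r = 0.86 with ASMT, given as a description like the other r here. 3 of its 10 measured IDs passed 0.7: RPE65 ENSDARG00000007480 (0.83), rlbp1a (0.82) and rlbp1b (0.80). The other 7 ran from -0.29, for RPE65 ENSDARG00000054420, to 0.34, and the list median was 0.25. The visual opsin list (8 IDs, all detected) summed to 0 to 59.5 CPM with a median of 0.609 CPM, highest in F0 F SCA 18 and next in F1 F SCA 4, at 18.2 CPM. Its 2 measured IDs had an r of 0.04 and 0.08 with ASMT, values that rest largely on the few fish with more than traces of these opsins. The lens sum had an r of -0.07 with ASMT and the habenula sum, 288 to 490 CPM, one of 0.24. The lens value again rests largely on F0 F SCA 18. The part that retinal or pineal tissue had in the high levels was not tested, since both express these genes.

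**Figure D4:**
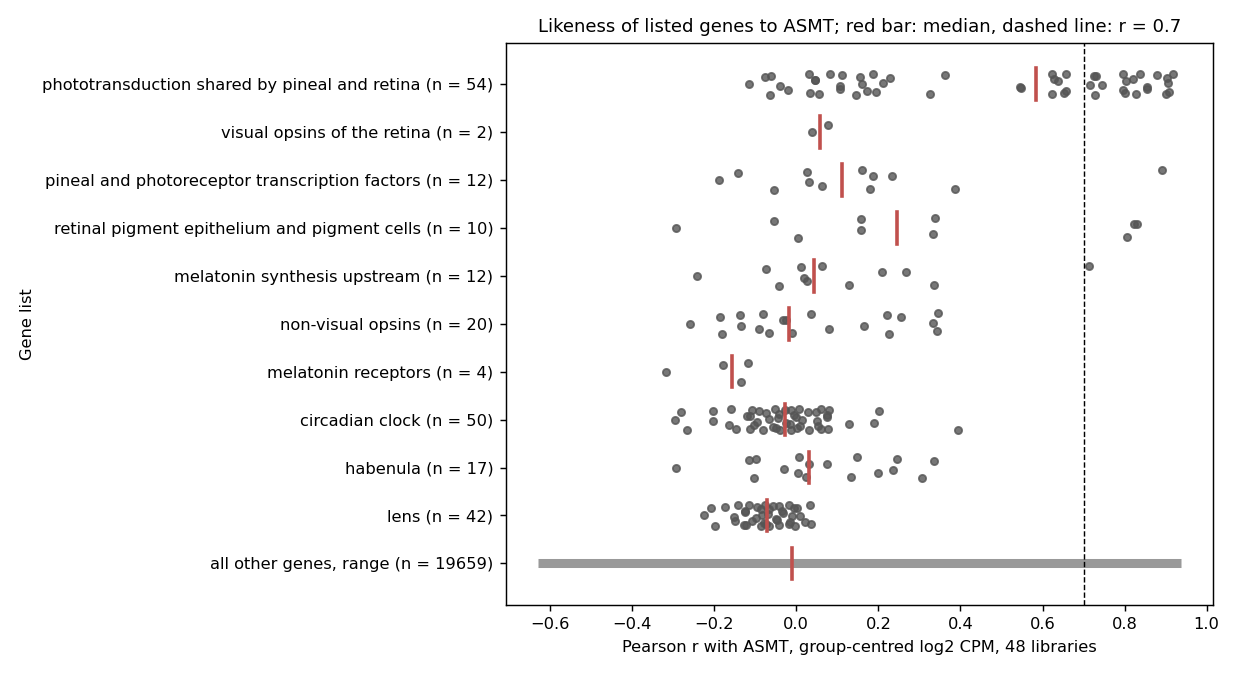
Pearson r of each listed gene with ASMT over 48 libraries (points), with the median of each list in red and, at the foot, the range and median over 19659 other genes. 20 of 54 phototransduction IDs lie at or right of the dashed line at 0.7, and no clock, habenula or lens ID does. The lens points rest largely on F0 F SCA 18, which held most lens RNA and was low in ASMT.

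Whether the lineage changed these genes was tested within each generation with edgeR's quasi-likelihood test over all genes, with a call at an adjusted p (Benjamini-Hochberg) below 0.05. No member was called in any of the 12 contrasts, and 29 of 30 pairs of groups overlapped. Over all genes tested, 5.12% of such pairs did not overlap, so 1 of 30 is near that background. Fold changes below are on the log2 scale, PH over SCA, with their standard errors.

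In F0, the exposed generation, ASMT had 0.246, 0.730, 1.07 and 17 CPM in PH females against 1.40, 1.40, 8.02 and 19 CPM in SCA females. In males it had 0.151, 0.625, 14.7 and 17.7 CPM in the PH group against 0.754, 1.07, 1.238 and 41.7 CPM in the SCA group. Each group held low and high fish and the groups overlapped. crx followed, with 0, 0.122, 0.133 and 4.64 CPM in PH females against 0.127, 3.25, 4.72 and 8.22 CPM in SCA females. In F0 males crx had 0.302, 0.625, 6.12 and 8.81 CPM in the PH group against 0.594, 0.867, 1.13 and 15.9 CPM in the SCA group. The fitted changes of ASMT were -0.65 ± 1.56 in females (adjusted p = 1.0) and -0.44 ± 1.49 in males (adjusted p = 0.973), and those of crx -1.73 ± 1.42 and -0.22 ± 1.27 (adjusted p = 1.0 and 0.984). Without F0 F SCA 18, the fish richest in lens RNA, ASMT was at -0.99, crx at -1.65 and CRX at -0.74 in F0 females, against -0.65, -1.73 and -1.48 with it. The other F0 SCA females also had more lens RNA than the PH females, so leaving out 1 fish does not remove that difference. An SE of over 1 on this scale leaves room for changes of several fold either way.

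The F0 male values turned on 1 fish. Without F0 M SCA 6 the changes were 1.25 for aanat2, 3.01 for ASMT, 2.19 for crx and 2.44 for CRX, against -0.63, -0.44, -0.22 and -0.62 with it. None was called either way. PH and SCA males of F0 also came from different sequencing lanes, per the lane marks that the F0 and F2 files carry. Lane and lineage cannot be told apart there. In F0 females AANAT averaged 2.41 ± 0.807 CPM in the PH group and 4.00 ± 1.42 CPM in the SCA group (SD, n = 4 each), a change of -0.74 ± 0.345 (adjusted p = 0.976). The share of all genes called was 0.0% in F0 females, F0 males, both sexes together and the difference between the sexes. Of the 5 IDs, AANAT in females alone had an unadjusted p under 0.05 (0.0490), and DESeq2 and limma-voom called none.

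In F1, ASMT had 1.26, 2.73, 5.32 and 16.4 CPM in PH females against 1.59, 5.36, 19.9 and 33.0 CPM in SCA females. In F1 males it had 0.380, 0.933, 1.3 and 2.3 CPM in the PH group against 1.18, 1.48, 1.56 and 10.5 CPM in the SCA group. The ranges overlapped in both sexes, and the high fish of the males was a single SCA fish. crx had 0.269, 0.389, 2.83 and 3.40 CPM in PH females against 0.340, 3.46, 6.23 and 7.48 CPM in SCA females. In F1 males all 8 fish were low in crx, with 0 to 0.419 CPM in the PH group and 0.361 to 0.422 CPM in the SCA group, close to the limit that 0 counts allow. aanat2 had 0.628, 1.17, 1.81 and 2.0 CPM in PH females against 0.793, 1.23, 4.35 and 4.67 CPM in SCA females.

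None of these passed. The change of ASMT was -1.22 ± 0.944 in F1 females (adjusted p = 0.819) and -1.51 ± 1.13 in F1 males (adjusted p = 0.756), and that of crx -1.31 ± 0.729 and -1.15 ± 1.21 (adjusted p = 0.692 and 0.850). Leaving out 1 library at a time moved ASMT between -2.26 and -0.45 in F1 females and between -2.0 and -0.17 in F1 males. aanat2 was at -0.97 ± 0.498 in females and at 0.57 ± 0.501 in males (adjusted p = 0.657 and 0.80). The difference between those 2 values was -1.54 ± 0.706, with an unadjusted p of 0.0429 and an adjusted p of 0.918. CRX did not pass the filter on low counts in F1, so 4 of the 5 IDs were tested there. Without that filter its change was -0.98 ± 0.837 in females and -0.35 ± 1.22 in males. Of all genes, 0.0663% were called in F1 females, 0.105% in males, 0.68% with the sexes averaged and 0.0% in the contrast between them. DESeq2 and limma-voom called no member in any of these, and 1 of 4 had an unadjusted p under 0.05, aanat2 for the difference between the sexes. The F1 files carry no lane mark, so whether lane was mixed with lineage or sex in F1 is not known.

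In F2, ASMT had 1.63, 1.75, 1.96 and 15.8 CPM in PH females against 0.877, 1.25, 17.8 and 21.6 CPM in SCA females. In F2 males it had 0.390, 1.02, 1.02 and 1.237 CPM in the PH group against 0.557, 1.52, 6.13 and 6.47 CPM in the SCA group. No PH male was high, and 2 of 4 SCA males were, with the others of that group inside or just above the PH range. crx had 0.146, 0.281, 0.889 and 4.29 CPM in PH females against 0.374, 0.501, 4.93 and 6.48 CPM in SCA females. In F2 males it had 0, 0.145, 0.390 and 0.464 CPM in the PH group against 0, 0, 2.28 and 4.32 CPM in the SCA group. Per the lane marks, F2 F PH 3 and F2 F PH 4 came from lane L2 and all other F2 libraries from L3. Lane and lineage are therefore partly mixed in F2 females.

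Every F2 value of ASMT, crx and CRX lay below 0, and none passed. The changes in F2 females were -0.98 ± 0.942 for ASMT and -1.13 ± 1.12 for crx (adjusted p = 0.558 and 0.573). In F2 males they were -2.02 ± 1.16 for ASMT and -2.65 ± 1.46 for crx (adjusted p = 0.652 and 0.631). The change of aanat2 was -0.18 ± 0.523 in F2 females and 0.03 ± 0.552 in F2 males (adjusted p = 0.865 and 0.991). Those of CRX were -1.05 ± 0.822 in F2 females and -1.75 ± 1.01 in F2 males (adjusted p = 0.468 and 0.653). Leaving out 1 library at a time moved the F2 female values between -2.53 and -0.31 for ASMT, -2.76 and -0.44 for crx, and -2.1 and -0.31 for CRX.

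AANAT in F2 females was the 1 pair of groups of the 30 that did not overlap. It had 3.5, 3.51, 4.00 and 4.30 CPM in PH females against 2.38, 2.39, 2.75 and 2.97 CPM in SCA females. Every PH female was above every SCA female, as was the case for 5.86% of all genes tested there, and the change of 0.52 ± 0.276 did not pass (adjusted p = 0.287). Lane was partly mixed with lineage in these females. Over the alternative settings, a lane term among them, the change ran from 0.462 to 0.64. In F2 males AANAT had 2.21, 3.94, 4.06 and 6.80 CPM in the PH group against 2.65, 2.93, 3.42 and 3.79 CPM in the SCA group, a change of 0.41 ± 0.272 (adjusted p = 0.703). Over both sexes it was 0.46 ± 0.194, with an unadjusted p of 0.0296 and an adjusted p of 0.171. CRX had an unadjusted p of 0.0484 there, at -1.40 ± 0.653 (adjusted p = 0.209). Of all genes, 0.137% were called in F2 females, 0.0171% in males, 1.1% with the sexes averaged and 0.0114% in the contrast between them. DESeq2 and limma-voom called no member in these 4 comparisons.

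**Figure D5:**
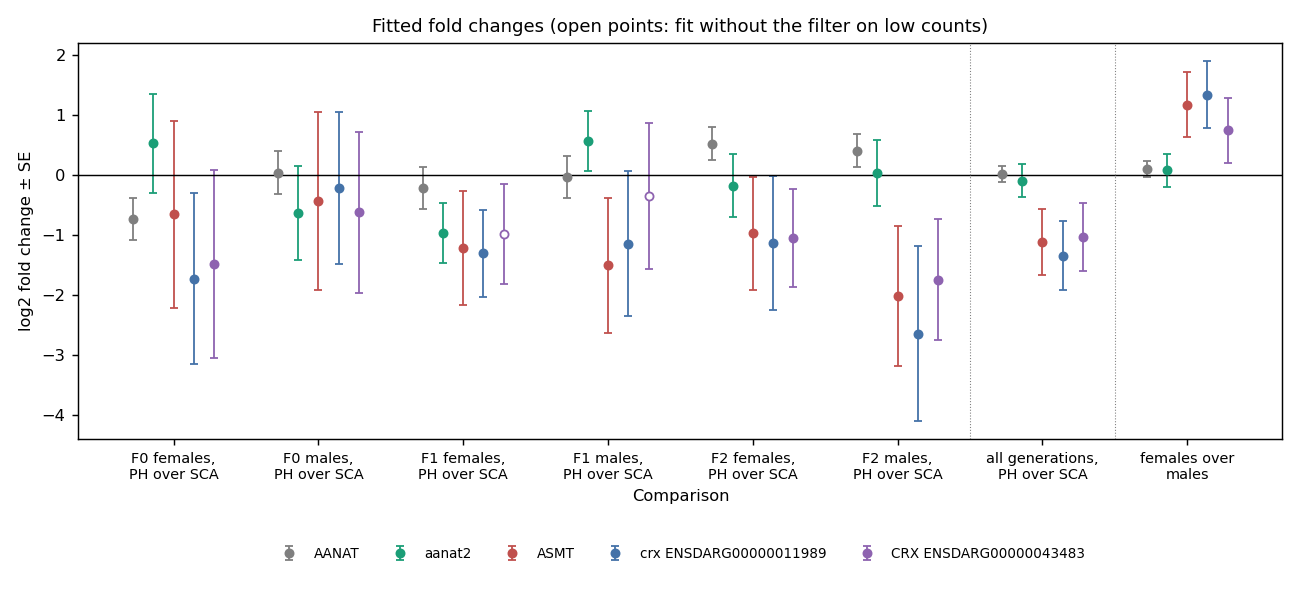
Fitted log2 fold change of each ID with its standard error, for PH over SCA in 6 pairs of groups and over all generations, and for females over males. Open points come from the fit without the filter on low counts. For ASMT, crx and CRX all values of PH over SCA lie below 0, with standard errors of 0.73 to 1.57 within a generation, and no value was called.

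A joint fit on all 48 libraries averaged the 6 lineage contrasts. 3.07% of 19062 genes were called, and no member was. The values were -1.12 ± 0.545 for ASMT (unadjusted p = 0.0461, adjusted p = 0.203), -1.35 ± 0.577 for crx (unadjusted p = 0.0243, adjusted p = 0.153) and -1.03 ± 0.566 for CRX (adjusted p = 0.259). aanat2 was at -0.10 ± 0.276 and AANAT at 0.01 ± 0.135 (adjusted p = 0.852 and 0.976). The median of the 5 IDs was the value of CRX, -1.03, against 0.00 over all genes. ASMT, crx and CRX were high in nearly the same fish, so their values are not independent and the median shows no shift of the set. F0 M SCA 6 weighed on these too: without it ASMT stood at -0.56 and CRX at -0.53, and without F0 F PH 10, at 17 CPM the 1 high fish of its group, ASMT stood at -1.59 and CRX at -1.57. Without the lens-rich F0 F SCA 18, ASMT, crx and CRX were at -1.19, -1.35 and -0.91. Whether the lineage effect differed between generations gave no call among the members, with 0.939% of all genes called. AANAT had the smallest p there (unadjusted 0.0462, adjusted 0.348). DESeq2 and limma-voom called no member in either test.

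Of the phototransduction list, 3 of 52 tested IDs fell in the PH lineage over all generations and none rose. These were GNAT2, the cone transducin (-1.03 ± 0.270, adjusted p = 0.0267), the channel subunit gene cngb1a (-1.24 ± 0.338, adjusted p = 0.0340) and guca1c, an activator of guanylate cyclase (-0.89 ± 0.258, adjusted p = 0.0454). The share of 3 in 52 stands beside 3.07% over all genes, and the list median was -0.82. The 3 were not those most like ASMT: their r with it was 0.54, 0.19 and 0.21, below the list median of 0.58. Their r with crx was 0.725, 0.488 and 0.464, against a list median of 0.708, so GNAT2 lay above that median. The sums of this list were highest in 2 control fish, at 2124 CPM in F0 M SCA 6 and 2032 CPM in F0 F SCA 18, the lens-rich fish, against a median of 1185 CPM. No library summed to less than 842 CPM. The sum includes IDs that hardly followed ASMT, such as gnb1a and gnb1b (r = 0.04 and 0.11), so it does not measure photoreceptor RNA alone. Without F0 F SCA 18 none of the 3 was called (adjusted p = 0.0553, 0.0578 and 0.0899), at -0.79 for GNAT2, -1.13 for cngb1a and -0.57 for guca1c, and without F0 M SCA 6 guca1c was not (adjusted p = 0.0583). No ID passed in the lists of upstream enzymes (12 tested, median -0.16), melatonin receptors (3, -0.14), transcription factors (12, 0.06), visual opsins (2, -2.19), pigment epithelium (10, -0.03) or lens (17, -1.43). F0 F SCA 18 had the highest sums of visual opsins and lens genes, and without it these medians were -1.56 and -0.26, with 1 lens ID called, lim2.1 (1.43 ± 0.383, adjusted p = 0.0346). Of 18 non-visual opsins 1 rose, tmtops3b (1.09 ± 0.266, adjusted p = 0.0180). Of 17 habenula IDs 1 fell, SLC5A7 ENSDARG00000102336, a choline transporter gene (-1.05 ± 0.278, adjusted p = 0.0280). Of 50 clock IDs 5 rose and 4 fell. The light-responsive cryptochrome and photolyase genes cry3a (0.42 ± 0.0668, adjusted p = 0.000862), cry3b (0.48 ± 0.0937, adjusted p = 0.00419) and cry5 (0.41 ± 0.0799, adjusted p = 0.00419) were among those that rose, and KLF9 fell by 1.35 ± 0.261 (adjusted p = 0.00419).

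Females were set against males over all lineages and generations, with 8.71% of genes called. No member was called. SCA females and SCA males of F0 came from different sequencing lanes, so sex and lane cannot be told apart there. Females stood above males by 1.17 ± 0.545 for ASMT (unadjusted p = 0.0378, adjusted p = 0.195), by 1.34 ± 0.565 for crx (unadjusted p = 0.0224, adjusted p = 0.144) and by 0.74 ± 0.543 for CRX (adjusted p = 0.464). aanat2 and AANAT were at 0.08 ± 0.276 and 0.10 ± 0.134 (adjusted p = 0.913 and 0.746). F0 M SCA 6 decided these calls. Without it ASMT was called at 1.74 (adjusted p = 0.0278) and crx at 1.74 (adjusted p = 0.0353), and without F0 F PH 10 they were at 0.71 and 0.73 (adjusted p = 0.523 and 0.643). DESeq2 and limma-voom called no member. In the phototransduction list none of 52 IDs was called, and the list median was 0.44 against 0.01 over all genes.

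Generation cannot be told apart from when fish were collected and sequenced, and 58.7% of all genes were called in F1 against F0. crx was lower in F1 by that test, at -1.83 ± 0.674 (adjusted p = 0.0188), as was CRX, at -1.76 ± 0.659 (adjusted p = 0.0206). A share of 2 of 5 IDs is below that background. Both calls rested on high F0 fish. Without F0 M SCA 6, crx was at -1.24 and CRX at -1.01 (adjusted p = 0.107 and 0.183), and without F0 F PH 10 they were at -0.93 and -0.96 (adjusted p = 0.459 and 0.491). Without F0 M PH 19, CRX was at -1.52 (adjusted p = 0.0506). limma-voom called neither, at -0.87 and -0.69, while DESeq2 called both and also aanat2 (-0.76, adjusted p = 0.0388). In edgeR aanat2 stood at -0.74 ± 0.340 (adjusted p = 0.0579). It was called in 13 of 48 fits that left out 1 library, and without F0 M SCA 6 it was at -0.28 (adjusted p = 0.418). The other values were ASMT at -0.74 ± 0.641 (adjusted p = 0.33) and AANAT at 0.12 ± 0.165 (adjusted p = 0.556). In F2 against F0 and F2 against F1, 39.9% and 42.4% of genes were called and no member was. 2 and 1 of the 5 IDs had an unadjusted p under 0.05, and DESeq2 and limma-voom called none.

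Apart from the clock and non-visual opsin lists, no list had a share called in F1 against F0 above the 58.7% of all genes. Of 12 upstream IDs 2 rose and 5 fell, among them GCH1, which starts the synthesis of the hydroxylase cofactor (-1.20 ± 0.133, adjusted p = 6.13e-10), QDPR ENSDARG00000040190 (-0.49 ± 0.0664, adjusted p = 4.76e-08) and DDC (-0.53 ± 0.108, adjusted p = 5.60e-05). Of 3 receptor IDs tested 1 was called, mtnr1aa, which fell (-1.15 ± 0.260, adjusted p = 0.000253). In the phototransduction list 18 of 52 IDs fell and 1 rose. Called were 9 of 17 habenula IDs, 6 of 12 transcription factor IDs and 4 of 10 pigment epithelium IDs. Among 17 lens IDs 3 were called, and 0 of 2 visual opsin IDs. Of 50 clock IDs 11 rose and 25 fell, and of 18 non-visual opsin IDs 7 rose and 6 fell, shares above that of all genes. Whether a list differs from all genes was not tested.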

How the data were processed

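Per the labels' protocols, frozen brains gave total RNA (TriPrep kit), which was sequenced as read pairs on a BGISEQ-500. The submitters' processing notes name STAR 2.7, HTSeq 0.11.2, DESeq2 1.24.0 and the build GRCz11 (danRer11). The strand setting of the counting is not given in the sources used here, nor is the release of the annotation, so overlapping and antisense genes cannot be told apart. The deposited files hold raw counts of read pairs for 32520 genes in each library. Their 5 summary lines, which name no gene and took 63.4 to 68.6% of each file's total, stayed out of library sizes and tests. Most of that, 60.3 to 65.4% of the total, was pairs that fell in no annotated gene. Pairs that did not map uniquely, 2.40 to 3.12%, stand in those lines, so reads shared by gene copies may be missing from the counts.

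Members and lists were chosen with earlier results of these data known. Symbols came from the gene name table, which named 29201 IDs. By rule, the genes named as most alike are the 4 most alike to each member among genes with a symbol that is not provisional. Symbols starting with si:, zgc:, wu:, im: or loc were taken as provisional. The si: genes named are those with the highest r of all with ASMT and with CRX. Of each list the rule allows up to 4 called IDs, or otherwise the 2 of smallest p, and not every list had genes named. Listed genes given only with their r to ASMT, such as TPH1, OTX2, bsx and parietopsin, were picked outside this rule. asmt2 was singled out after its values were seen. The IDs of 1 symbol are not reported here and were left out of lists and likeness.

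The 16 libraries of a generation were fitted together with 4 group means in edgeR 4.0.16 (R 4.3.3, filterByExpr, TMM, robust glmQLFit and glmQLFTest), with 18081, 18094 and 17505 genes tested in F0, F1 and F2. A joint fit took 12 group means over 48 libraries and 19062 genes. All 5 IDs passed the filter in F0, F2 and the joint fit, and 4 in F1. Calls used a Benjamini-Hochberg adjusted p under 0.05 over all genes tested, and standard errors came from the F statistic. Fits were tested on simulated data, which gave every gene the same spread and none a high and a low set of fish. That check therefore does not show how the fits behave for ASMT, crx and CRX. Chi-square per degree of freedom between libraries of a group was at least 4.78, so none was counted as a duplicate. The labels do not say whether fish of a group shared a tank or parents, and the p-values reflect only how much these fish vary. Correlations used log2 CPM with a prior count of 2, in Python 3.11.15 with SciPy 1.17.1. A gene was called stepped where its largest gap was at least 0.75 on the log2 scale with at least 6 libraries on each side, a rule set after seeing the data. Alternatives were DESeq2 1.42.0, limma-voom 3.58.1, DESeq2 size factors, no filter, all 48 libraries in 1 fit, a replicate block, a lane term and each library left out. Counts over the lists without F0 M SCA 6 or F0 F SCA 18 were added after seeing the data.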

Additional observations from a re-analysis of the deposited data

Results flagged for a closer look

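In 10 of 60 combinations of an ID and a group, the highest fish stood far from the other 3 of its group by Dixon's criterion on CPM. Chance flags about 1 in 20 where values are normally distributed, and CPM are skewed. On log2 CPM 6 of 60 met the criterion. The flags are not independent, since the same fish recur.

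F0 M SCA 6, an F0 control male, was flagged for 4 IDs. It had 14.8 CPM of aanat2 where the next fish of its group had 1.90, 41.7 CPM of ASMT (next 1.238), 15.9 CPM of crx ENSDARG00000011989 (next 1.13) and 9.09 CPM of CRX ENSDARG00000043483 (next 0.495). F0 F PH 10, a female of the permethrin lineage, was flagged for 3, with 17 CPM of ASMT (next 1.07), 4.64 CPM of crx (next 0.133) and 1.96 CPM of CRX (next 0.123).

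ASMT was also flagged in F2 F PH 5, at 15.8 CPM (next 1.96), and in F1 M SCA 14, at 10.5 CPM (next 1.56), where crx was at 0.420 CPM. AANAT was flagged once, in F1 M PH 6, at 4.81 CPM (next 2.3). What sets these fish apart was not tested.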

How the results depend on the processing

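Of 1388 alternative values of the members' fold changes, 1302 kept their direction and their side of the threshold, 7 lost a call, 18 gained one and 61 turned in sign. Counts of members called stood within 1.5 times in 557 of 572 cases. The main fits called members only in F1 against F0, so most of these cases set 0 against 0 and say little about robustness. The low counts of crx and CRX and groups of 4 fish limit what could be detected. The cause of the changes below was not tested unless the setting itself gives it.

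Signs that turned under limma-voom were, in F0 males, aanat2 (0.301), ASMT (0.0279), crx (0.143) and CRX (0.0891), in F2 females aanat2 (0.270), over all generations AANAT (-0.00599) and aanat2 (0.205), and in F1 against F0 ASMT (0.219), where limma-voom called 0 members. A lane term turned aanat2 in F2 females (0.176).

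In F0 some replicate numbers recur in both lineages. Libraries sharing a number did not deviate together (correlations of 0.121, 0.126, -0.280 and -0.0783), so the numbers were not taken as pairs. The replicate block called 2 members in F0 females, 1 in F0 males and 2 for the difference between the sexes, with few fish behind each value. Its signs turned for AANAT (0.0159) and aanat2 (-0.894) in females, and for AANAT (-0.173), aanat2 (2.1), ASMT (4.22), crx (2.38) and CRX (2.46) in males.

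Leaving out 1 library at a time gave ranges across 0. In F0 females this held for ASMT (-3.46 to 0.373), and in F0 males for AANAT (-0.142 to 0.213), aanat2 (-0.967 to 1.25), ASMT (-1.10 to 3.01), crx (-0.951 to 2.19) and CRX (-1.62 to 2.44). It held for AANAT in F1 males (-0.407 to 0.0926), for aanat2 in F2 females (-0.492 to 0.459) and F2 males (-0.201 to 0.250), and over all generations for AANAT (-0.0588 to 0.0462) and aanat2 (-0.190 to 0.208). It also held for aanat2 in females against males (-0.0276 to 0.391) and for ASMT in F1 against F0 (-1.08 to 0.112). Members called ranged from 0 to 3 in F1 against F0, from 0 to 2 in females against males, and from 0 to 1 in F2 against F0 and in F2 against F1. Without F0 F SCA 18, r of ASMT and CRX in the low set was -0.151.

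Counts over all genes moved more. Under DESeq2 they were 15, 11 and 52 in F0 females, males and both sexes (main counts 0), 142, 163 and 378 in F1 (main 12, 19 and 123), 520, 112 and 951 in F2 (main 24, 3 and 193), and 1103 over all generations (main 586). Leaving out 1 library gave 1 to 29, 0 to 46 and 60 to 158 in F1, 3 to 1251, 3 to 18 and 78 to 1192 in F2, and 358 to 1098 over all generations.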
